A study of Homo sapiens with 12 samples.

Results

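The genes described here are 9 transcription factors of the squamous epithelial lineage, TP63, SOX2, KLF5, GRHL2, GRHL3, TFAP2A, ZNF750, PAX9 and FOXE1, taken from 20033 protein-coding genes. They were chosen by name, and their chromatin was read from the ATAC-seq peaks with a height (Pileup) of 3 or more whose midpoint lay within 20 kb of the RefSeq span of the gene. ATAC-seq marks open chromatin as places where a transposase can insert into DNA. Peak lists of 12 libraries were used, 3 from each of 4 groups. These were KYSE150 control cells, KYSE150 cells with the long non-coding RNA HCP5 silenced, KYSE510 control cells and KYSE510 cells with HCP5 silenced. KYSE150 and KYSE510 are established human oesophageal squamous cell carcinoma lines, grown in the same medium with fetal serum, and each stands for 1 tumour. The labels name neither the silencing reagent nor the control reagent, and do not say whether the replicates came from separate cultures, so p-values measure the spread between these libraries. The 9 windows held 37 to 46 such peaks per library in KYSE150 and 62 to 78 in KYSE510.

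Stratified squamous epithelium, such as the lining of the oesophagus, is built by a small set of transcription factors. TP63 (p63) maintains basal progenitor cells, SOX2 marks the foregut and oesophageal lineage, and KLF5, the GRHL proteins and TFAP2A drive epithelial genes from promoters and distant enhancers. ZNF750 and GRHL3 act later, in differentiation, while PAX9 and FOXE1 take part in patterning of the foregut and oral epithelium. TP63 and SOX2 lie on the long arm of chromosome 3, a region often amplified in squamous cancers.

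The promoter sequences of SOX2, KLF5 and PAX9 are shown first, because a start site of each carried the peaks on which much of the description rests. RefSeq promoters of build GRCh38.p14 run from 250 bases before to 50 bases after a start. They were matched for 7 of the 9 genes, with 11 starts. KLF5 and PAX9 each have 2 listed starts, of which only the second was covered by a peak in any library. The capitals mark GGGCGG (a GC box, bound by KLF and SP factors) and CCAAT (bound by NF-Y), found on either strand, so that they also read CCGCCC and ATTGG. All 5 promoters lie on the plus strand.
SOX2, chr3:181711675-181711974, under a peak in 6 of 12 libraries: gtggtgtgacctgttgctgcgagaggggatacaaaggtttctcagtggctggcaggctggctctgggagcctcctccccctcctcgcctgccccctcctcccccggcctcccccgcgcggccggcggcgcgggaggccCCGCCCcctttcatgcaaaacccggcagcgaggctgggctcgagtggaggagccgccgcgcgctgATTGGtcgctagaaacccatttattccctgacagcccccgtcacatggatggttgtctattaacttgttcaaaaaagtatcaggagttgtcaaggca
KLF5 first start, chr13:73054726-73055025, under a peak in 0 of 12: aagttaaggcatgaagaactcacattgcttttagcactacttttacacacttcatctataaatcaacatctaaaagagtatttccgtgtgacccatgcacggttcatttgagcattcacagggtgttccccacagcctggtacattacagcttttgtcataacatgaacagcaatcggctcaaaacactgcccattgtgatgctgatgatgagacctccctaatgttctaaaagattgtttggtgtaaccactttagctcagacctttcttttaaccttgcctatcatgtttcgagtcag
KLF5 second start, chr13:73058755-73059054, under a peak in 12 of 12: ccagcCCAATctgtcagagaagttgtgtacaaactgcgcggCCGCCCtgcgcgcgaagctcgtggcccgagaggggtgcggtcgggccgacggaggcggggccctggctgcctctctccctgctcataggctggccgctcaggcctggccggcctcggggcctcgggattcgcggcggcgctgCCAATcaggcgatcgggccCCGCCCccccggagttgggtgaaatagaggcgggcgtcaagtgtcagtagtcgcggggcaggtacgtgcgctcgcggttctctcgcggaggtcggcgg
PAX9 first start, chr14:36657318-36657617, under a peak in 0 of 12: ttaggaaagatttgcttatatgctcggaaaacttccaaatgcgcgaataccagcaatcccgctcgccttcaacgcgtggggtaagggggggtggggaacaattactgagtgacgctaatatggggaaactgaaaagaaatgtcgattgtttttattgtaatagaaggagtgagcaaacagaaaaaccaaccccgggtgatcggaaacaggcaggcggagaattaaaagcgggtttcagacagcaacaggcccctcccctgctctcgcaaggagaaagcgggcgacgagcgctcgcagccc
PAX9 second start, chr14:36661610-36661909, under a peak in 12 of 12: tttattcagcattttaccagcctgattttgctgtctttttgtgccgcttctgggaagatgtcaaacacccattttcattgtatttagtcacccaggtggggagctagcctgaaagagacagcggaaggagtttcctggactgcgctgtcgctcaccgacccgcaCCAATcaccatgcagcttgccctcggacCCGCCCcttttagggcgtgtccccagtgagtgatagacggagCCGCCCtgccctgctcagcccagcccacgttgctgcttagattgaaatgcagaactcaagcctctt

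The covered and uncovered starts of KLF5 and PAX9 differed in letters as follows. The covered KLF5 start had 71.3% G and C and 37 CpG pairs, and the uncovered one had 40.7% and 4. The covered PAX9 start had 54.0% G and C and 12 CpG pairs, while the uncovered one had 51.0% and 19. For comparison, the median over 35116 RefSeq promoters of the same length was 58.7% G and C and 14 CpG pairs. Both covered starts held 2 copies of GGGCGG and at least 1 of CCAAT, and both uncovered starts held none of either. Other genes did not keep to that order. The uncovered FOXE1 start held 4 GGGCGG and the uncovered TP63 start 2 CCAAT. Both TFAP2A starts, covered in 11 and 12 libraries, held neither motif. At GRHL3 the covered first start held 1 GGGCGG and 2 CCAAT, and the uncovered second start held neither. GGGCGG occurred in 45.0% of the 35116 promoters and CCAAT in 34.6%, and in 5 and 5 of the 11 promoters of these genes.

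The SOX2 promoter held 1 GGGCGG and 1 CCAAT, 63.3% G and C and 20 CpG pairs. It also held 1 match to AACNNGTT, the GRHL motif, which 3.52% of all promoters hold, and 1 to ACAAAG, a SOX motif held by 16.1%. TFAP2 motif letters (GCCNNNGGC, 23.2% of all promoters) occurred once there and once at the second GRHL3 start. CACCC, another KLF motif, occurred in 9 of the 11 promoters and in 59.9% of all. TATAAA, the TATA box, was in 3 of the 11 against 11.5% of all, and TGANTCA, the AP-1 motif, in 0 of the 11 against 7.71%. Every motif was searched on both strands, and CACCC and GGGCGG can share letters. Such matches describe letters only.

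Peak height is in whole units at the highest position of a peak, as the authors' tables give it. The lists of the 2 lines were not equally deep. KYSE150 libraries had 52869 to 63295 peaks with a height of 3 or more and KYSE510 libraries 104208 to 123109, although the median height of these peaks was 5 in every library. A background height was solved from the tables as a stand-in for relative depth. In KYSE150 libraries it lay between 0.0826 and 0.108, and in KYSE510 libraries between 0.180 and 0.217. Line and depth can therefore not be told apart. Overlap of groups in height was judged only within a line, and heights printed for both lines side by side are descriptions at unlike depth. Across lines, the tallest peak of each gene was ranked among all genes of the same library, and the rank was given as a percentile or, for tests, as a normal score (a rank turned into a standard normal value).

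The labelled cell type was checked against marker genes. All 10 squamous or basal markers, among them KRT5, KRT14 and DSG3, had a peak in all 6 libraries of each line, with a median percentile of the tallest peak of 56.4 in KYSE150 and 66.2 in KYSE510. They ran from KRT6A (20.1) to TRIM29 (97.3) in KYSE150 and from KRT14 (15.0) to PKP1 (98.2) in KYSE510. Of 9 glandular or intestinal markers, 7 had one in all 6 KYSE150 libraries and 9 in all 6 KYSE510 libraries, with median percentiles of 36.0 and 46.1. Of 10 non-epithelial markers the counts were 8 and 10, with medians of 46.1 and 52.5. Peaks near a gene were thus common outside the lineage too, since 77.7% of all genes had a peak in all 6 KYSE150 libraries and 87.8% in all 6 KYSE510 libraries. The highest non-epithelial markers were IKZF1 in KYSE150, at percentile 98.6, and GATA1 in KYSE510, at 94.5. The highest glandular markers were VIL1 in KYSE150 (65.3) and HNF4A in KYSE510 (85.2). The summed heights of the tallest peaks at the squamous markers were 126 to 181 in KYSE150 and 219 to 291 in KYSE510, and at the non-epithelial markers 121 to 183 and 166 to 204.

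Peaks of all libraries around the 9 genes merged into 149 regions, of which 20 (13.4%) were called in all 12 libraries and 63 in 1 library. In the whole series 7.34% of 290571 regions were called in all 12. By place, 12 of the 149 lay within 1 kb of a start (promoter), 79 elsewhere in the gene body and 58 in the flanks. GRHL2 and ZNF750 have no listed start, so either gene end stood for one, and each had 1 of the 12. Per library, promoter peaks numbered 5 to 9 in KYSE150 and 9 to 12 in KYSE510, gene body peaks 20 to 25 and 27 to 37, and flanking peaks 11 to 16 and 24 to 32. The gene table holds no exons, so intronic and exonic peaks were not separated. TP63, with a window of 340531 bp, had 45 of the regions and GRHL2, with 228762 bp, had 30, so the number of peaks and the height of the tallest both depend on the length of the window.

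The genes did not share 1 layout. In KYSE150 the order of the median percentile was KLF5 (91.9), PAX9 (83.3), TFAP2A (80.8), TP63 (74.1), GRHL2 (67.7), ZNF750 (54.3), GRHL3 (34.5), FOXE1 (17.3) and SOX2 (7.70). Each range over the 6 libraries overlapped that of the next gene. In KYSE510 it was PAX9 (92.0), KLF5 (73.5), TFAP2A (68.9), GRHL2 (57.9), TP63 (53.6), GRHL3 (53.1), ZNF750 (46.8), SOX2 (40.8) and FOXE1 (20.9). There the range of PAX9 stood apart from that of KLF5, and every other neighbouring pair overlapped.

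**Figure D1:**
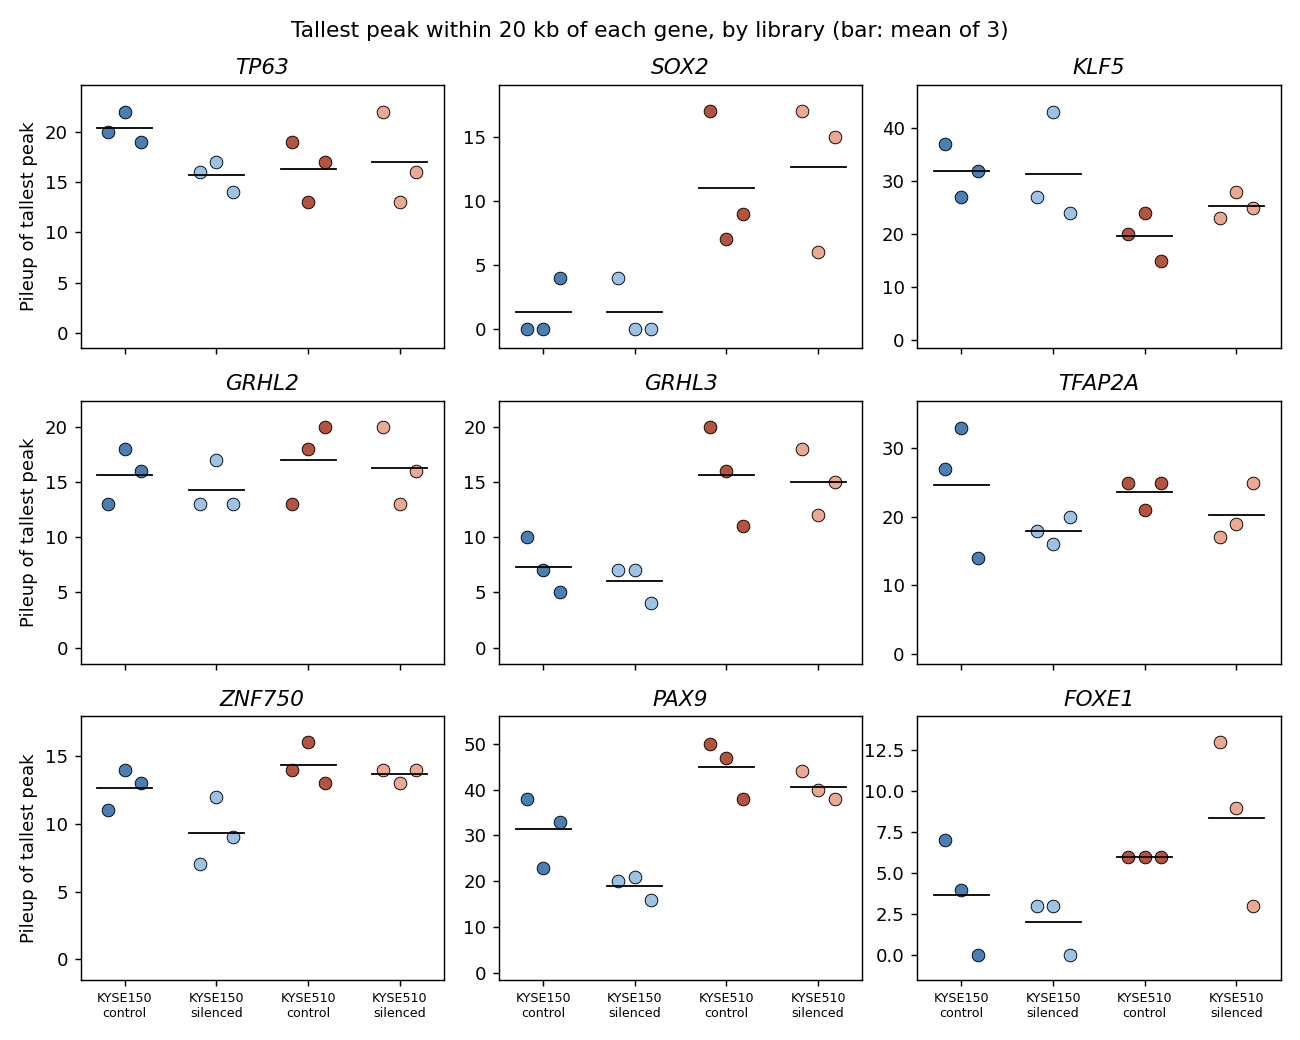
Height (Pileup, linear scale from below 0) of the tallest peak within 20 kb of each of the 9 genes in each of the 12 libraries, 1 point per library, with a bar at the mean of the 3 libraries of a group. SOX2 stands at 0 or 4 in KYSE150 and at 6 to 17 in KYSE510, where PAX9 stands at 38 to 50.

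TP63 encodes p63, the master regulator of basal squamous cells, and spans chr3:189596746-189897276. No peak was called within 1 kb of its listed start at position 189631389 in any of the 12 libraries. The nearest region, chr3:189629927-189630296, had a height of 4 in KYSE510 silenced replicate 1 and no peak of that height elsewhere. Only 1 start of TP63 was listed, so a peak at any other start inside the gene was classed as gene body. Whether such a start was open was therefore not examined. The called regions lay along the gene body and in the flanks, and 9 of the 45 were called in all 12 libraries.

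The tallest region of TP63 in KYSE150 was downstream of the gene at chr3:189909276-189910028. Its heights were 20, 22 and 17 in KYSE150 controls, 13, 17 and 10 in KYSE150 silenced libraries, 14, 10 and 8 in KYSE510 controls and 6, 10 and 8 in KYSE510 silenced libraries. Control and silenced libraries overlapped at 17 in KYSE150 and from 8 to 10 in KYSE510. In KYSE510 the tallest region was inside the gene at chr3:189710580-189711048, with heights of 13, 7 and 17 in controls and 22, 11 and 16 in silenced libraries, and with 8, 13 and 10 and then 7, 8 and 7 in KYSE150. Here the KYSE510 groups overlapped, and so did those of KYSE150, where both held an 8.

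Another region inside the gene was tall in both lines. At chr3:189839568-189840030 the heights were 16, 17 and 16 in KYSE150 controls, 8, 13 and 11 in KYSE150 silenced libraries, 19, 9 and 12 in KYSE510 controls and 14, 13 and 10 in KYSE510 silenced libraries. All KYSE150 controls lay above the silenced libraries, and the KYSE510 groups overlapped; the limma test of this region in KYSE150 gave a difference of -0.44 ± 0.32 (SE) in normal score with an adjusted p of 0.938. At chr3:189789408-189789813 the heights were 13, 11 and 15 and 8, 6 and 13 in KYSE150, against 4, 8 and 0 and 9, 0 and 5 in KYSE510. That region was called in every KYSE150 library and in 4 of 6 KYSE510 libraries.

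**Figure D2:**
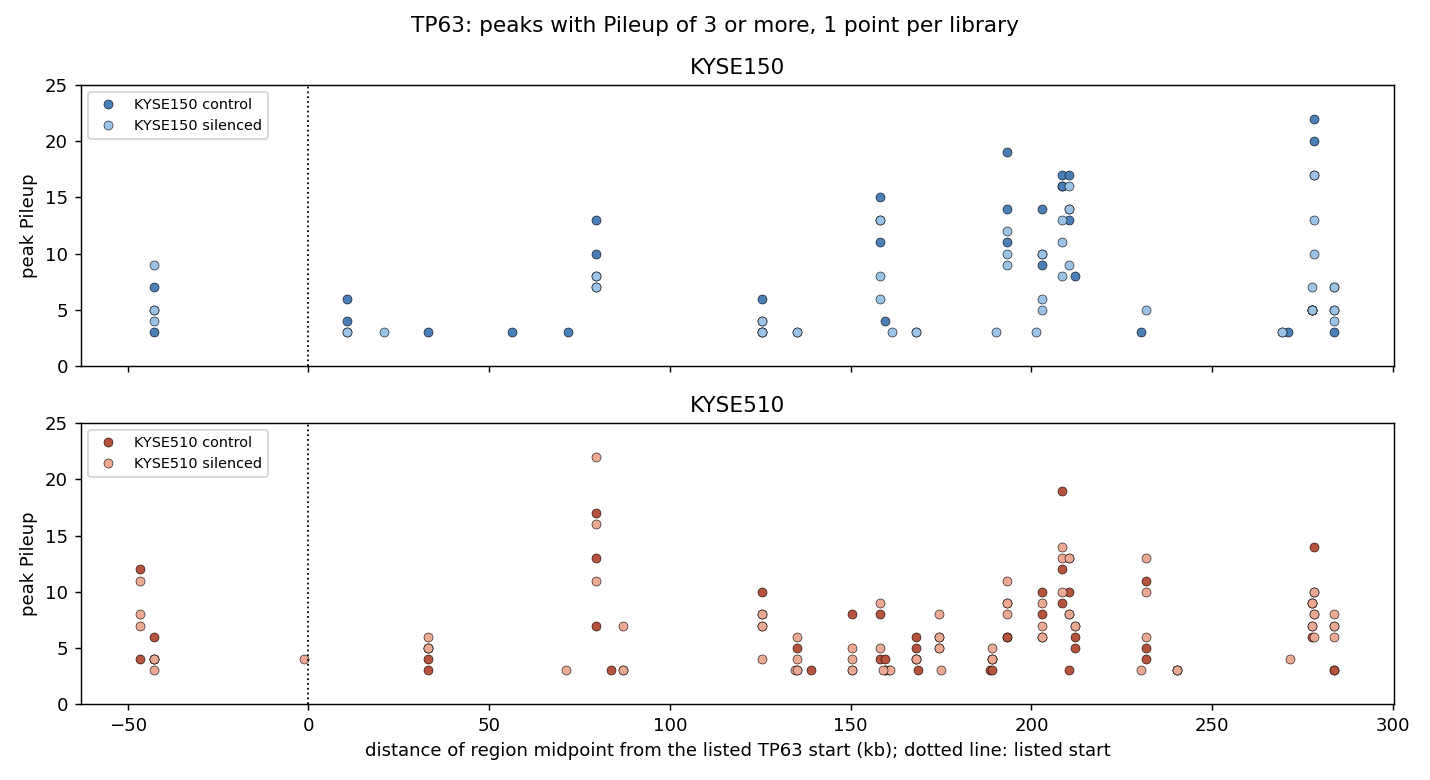
Height (Pileup) of each peak at TP63 against the distance of its region from the listed start in kb, with KYSE150 libraries above and KYSE510 libraries below, 1 point per library. Peaks are spread along the gene and beyond its end, and none lies within 1 kb of the start (dotted line).

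SOX2, a partner of p63 in squamous cancer cells and a single-exon gene, spans chr3:181711925-181714436. A peak over its start was called in one line only. The region over the start, chr3:181711424-181712042, was called in all 6 KYSE510 libraries and in none of the 6 KYSE150 libraries. The heights were 17, 7 and 9 in KYSE510 controls and 17, 6 and 15 in KYSE510 silenced libraries, so these groups overlapped.

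The KYSE150 lists go down to a height of 1. At this start 5 of the 6 KYSE150 libraries had no listed peak, and the other, silenced replicate 3, had a height of 2. The part of library depth in this was not tested. Within the whole 20 kb window, KYSE150 libraries held a peak of height 4 in control replicate 3 and silenced replicate 1, both upstream in chr3:181700487-181701011, and none of height 3 or more in the other 4 libraries. The solved background was taken over all listed peaks in a stretch around SOX2 wider than its window, relative to each library's most frequent level. It had a median of 1.22 in KYSE510, below the 1.71 over all peaks of that line. In KYSE150 its median was at that most frequent level, as was the median over all peaks of that line. Copy number at the gene was not measured, and its part in the difference was not tested.

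KLF5, a zinc finger factor of proliferating basal cells, spans chr13:73054976-73077538 and had the highest median percentile of the 9 genes in KYSE150, at 91.9. The region over its second start, chr13:73058514-73059206, had heights of 37, 27 and 32 in KYSE150 controls and 27, 43 and 24 in KYSE150 silenced libraries. In KYSE510 they were 20, 24 and 15 in controls and 23, 28 and 25 in silenced libraries. The groups overlapped within each line. The tallest peak of KLF5 ranked from 273 to 1858 in KYSE150 libraries and from 3666 to 11516 in the longer KYSE510 lists.

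A further KLF5 region lay downstream of the gene at chr13:73090063-73090858. Its heights were 14, 12 and 14 in KYSE150 controls and 6, 8 and 10 in KYSE150 silenced libraries, with 7, 6 and 8 and then 10, 11 and 7 in KYSE510. The KYSE150 groups did not overlap. By limma this was the region at the 9 genes with the smallest unadjusted p in KYSE150, with a difference of -0.58 ± 0.34 (SE) in normal score and an adjusted p of 0.914.

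PAX9, a paired-box factor of the pharyngeal pouches and the oesophageal epithelium, spans chr14:36657568-36679362. The region over its second start, chr14:36661600-36662385, was the tallest of the 9 genes in KYSE510. Its heights were 50, 47 and 38 in KYSE510 controls and 44, 40 and 38 in KYSE510 silenced libraries, which overlapped. In KYSE150 they were 38, 23 and 33 in controls and 20, 21 and 16 in silenced libraries, which did not overlap. PAX9 was otherwise sparse: KYSE150 libraries had 1 or 2 peaks in its window and KYSE510 libraries 2 to 4. A region inside the neighbouring SLC25A21, chr14:36690356-36691187, reached 16, 17 and 6 in KYSE510 controls and 13, 12 and 13 in KYSE510 silenced libraries, but 3 in only 2 of the 6 KYSE150 libraries, control replicate 2 and silenced replicate 2.

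**Figure D3:**
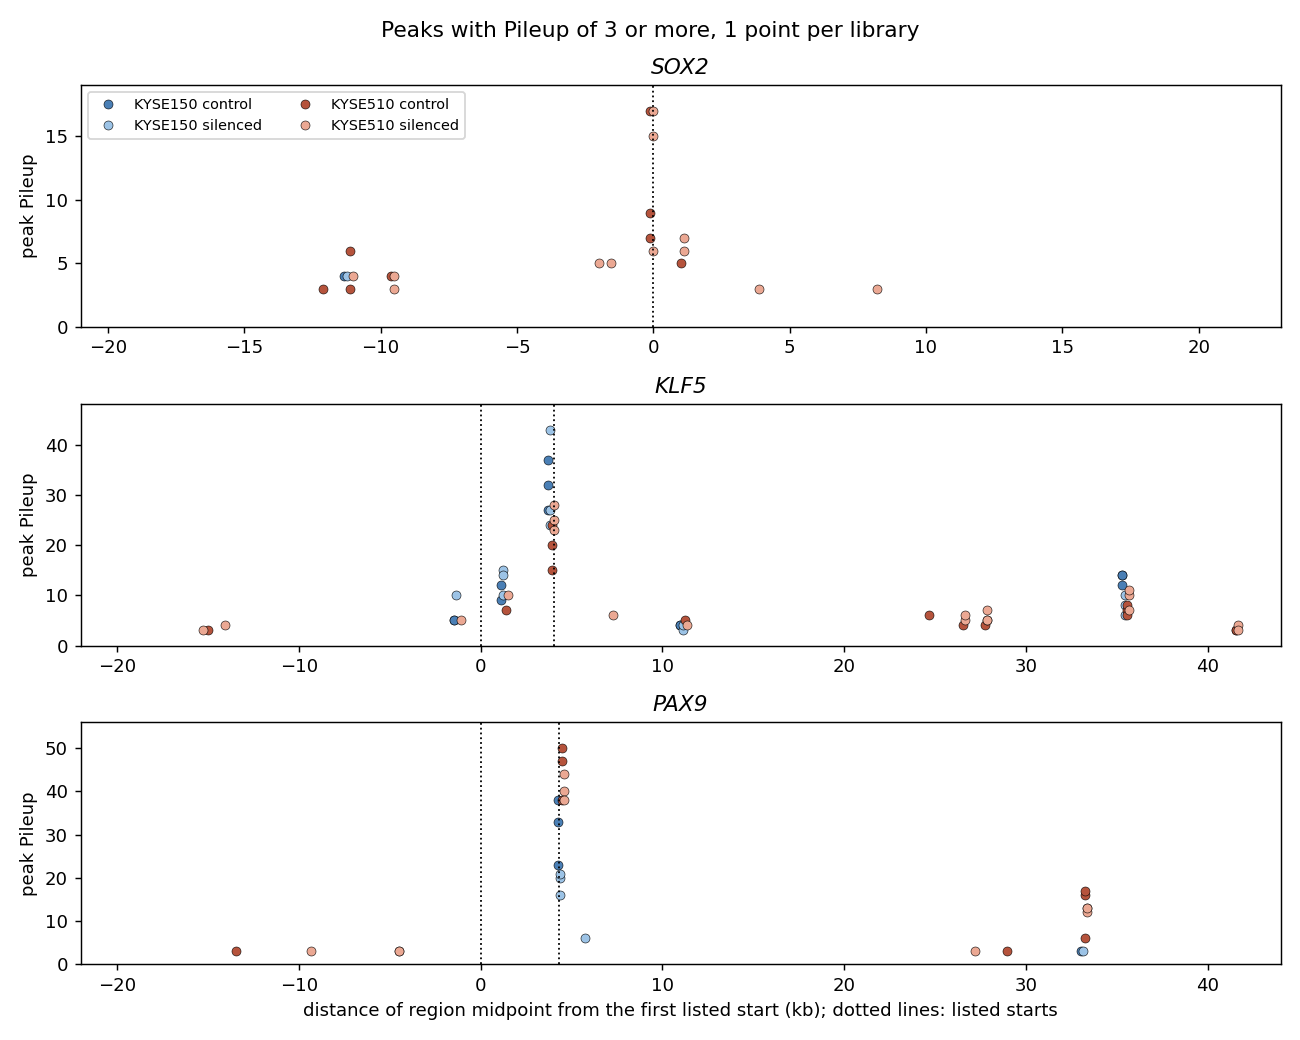
Height (Pileup) of each peak at SOX2, KLF5 and PAX9 against the distance of its region from the first listed start in kb, 1 point per library, with the 4 groups set slightly apart sideways. The tallest points of KLF5 and PAX9 lie at the second start (second dotted line), and the points at the SOX2 start are all from KYSE510.

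TFAP2A, which encodes the AP-2 alpha factor of surface ectoderm, spans chr6:10396677-10419659, and both of its listed starts were open. At the start at 10412391, the region chr6:10411993-10413209 had heights of 9, 10 and 10 in KYSE150 controls, 7, 8 and 8 in KYSE150 silenced libraries, 11, 13 and 12 in KYSE510 controls and 15, 10 and 11 in KYSE510 silenced libraries. The KYSE150 groups did not overlap, and the limma difference was -0.13 ± 0.29 (SE) with an adjusted p of 0.991. The other start, at 10419659, had a peak in 11 of 12 libraries, with 0, 8 and 9 and 8, 10 and 6 in KYSE150 and 12, 11 and 10 and 10, 9 and 8 in KYSE510. The tallest region was inside the gene, at chr6:10403576-10404792. It had heights of 27, 33 and 14 in KYSE150 controls and 18, 16 and 20 in KYSE150 silenced libraries, with 25, 21 and 25 and then 15, 19 and 25 in KYSE510, and the groups overlapped in both lines.

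GRHL2 and GRHL3 encode grainyhead-like factors, of which GRHL2 maintains epithelial junction genes and GRHL3 acts in barrier formation. GRHL2 spans chr8:101492439-101681200. The region over its lower end, chr8:101491953-101492927, had heights of 12, 13 and 10 in KYSE150 controls, 11, 9 and 13 in KYSE150 silenced libraries, 13, 11 and 12 in KYSE510 controls and 20, 11 and 13 in KYSE510 silenced libraries. A region inside the gene, chr8:101635378-101636265, was as tall, with 13, 18 and 12 and 13, 17 and 13 in KYSE150 and 11, 18 and 20 and 9, 13 and 16 in KYSE510. Groups overlapped at both regions in both lines.

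GRHL3 spans chr1:24319357-24364482. At its first start, chr1:24319148-24319841 had heights of 0, 7 and 0 in KYSE150 controls and 4, 6 and 0 in KYSE150 silenced libraries, but 20, 9 and 7 and 7, 9 and 13 in the KYSE510 groups. Thus 3 of 6 KYSE150 libraries and all 6 KYSE510 libraries had a peak at that start. Just upstream, chr1:24316730-24317457 had 10, 6 and 4 and 7, 7 and 3 in KYSE150 against 7, 16 and 11 and 18, 10 and 15 in KYSE510.

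ZNF750, a zinc finger factor of terminal epidermal differentiation, spans chr17:82829434-82840022 inside the larger gene TBCD, so none of its peaks can be assigned to ZNF750 alone. Its strand is not in the gene table, and the peaks near its upper end, chr17:82839860-82840293, reached 6, 5 and 3 in 3 KYSE510 libraries and were missing in the other 9. The region chr17:82835925-82836582 was called in all 12 libraries, with 11, 14 and 13 and 7, 12 and 9 in KYSE150 and 14, 6 and 13 and 12, 13 and 13 in KYSE510. The groups overlapped in both lines. FOXE1, a forkhead factor of the thyroid and foregut, spans chr9:97853226-97856717 and had the lowest peaks together with SOX2. A region just past its start, chr9:97853914-97854672, had 0, 0 and 0 and 3, 3 and 0 in KYSE150 and 6, 6 and 6 and 12, 9 and 3 in KYSE510. Below the minimum of 3, the KYSE150 controls had peaks of height 1, 2 and 2 there, and KYSE150 silenced replicate 3 had 1. A flanking region, chr9:97873988-97874241, was seen in 2 libraries, with 7 in KYSE150 control replicate 1 and 13 in KYSE510 silenced replicate 1.

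The first comparison set the control libraries of the lines against each other. KLF5 and TP63 stood lower in KYSE510, relative to the other genes of the same library. The difference in normal score of the tallest peak, KYSE510 minus KYSE150, was -1.10 ± 0.23 (SE) for KLF5 with a limma adjusted p of 0.00205, and -0.68 ± 0.20 for TP63 with a limma adjusted p of 0.0187. A gene needed a peak in at least 3 of the 6 control libraries to be tested. SOX2 had one in 1 of 3 KYSE150 controls and in 3 of 3 KYSE510 controls, so it was tested only through the line where it was high. Its fitted difference of 1.02 ± 0.25 (SE) is therefore given as a description of the heights above and not as a call. Of the other 8 genes 2 were called lower and 0 higher, where 14.1% and 14.9% of the 18453 genes tested were called.

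The solved background relative to each KYSE510 library's most frequent level had medians of 1.54 around KLF5 and 1.80 around TP63. The median over all peaks was 1.71, and the part of this background in these differences was not tested. The other 6 genes missed the threshold as tested here. GRHL3 came nearest, at 0.49 ± 0.23 (SE) with a limma adjusted p of 0.126, followed by TFAP2A at -0.39 ± 0.28 with 0.322. GRHL2, ZNF750, PAX9 and FOXE1 had differences of -0.26, -0.20, 0.15 and 0.02. Of these 6, PAX9, TFAP2A and GRHL3 passed the threshold under a single alternative each. PAX9 stood at 0.89 with fold enrichment in place of height (limma adjusted p 0.0482). TFAP2A reached -0.78 without KYSE150 control replicate 3 (limma adjusted p 0.0297) and GRHL3 0.49 with all 12 libraries in the fit (0.0106). Without peaks over listed starts PAX9 stood at 1.48, and with a window of 5 kb FOXE1 stood at 0.71. Those PAX9 peaks were in 1 of 3 KYSE150 controls and those of FOXE1 in none, against 3 of 3 KYSE510 controls. Both were thus tested only through KYSE510, and these 2 differences are descriptions and not calls.

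The calls of KLF5 and TP63 differed in how they held. KLF5 stayed past the threshold in all 17 alternatives, with limma adjusted p from 1.83e-05 to 0.0356. TP63 lost its call in 4 of 17 alternatives, with differences close to the -0.68 of all 6 libraries in 3 of them. The difference was -0.61 without KYSE150 control replicate 2 (limma adjusted p 0.0673), -0.70 without KYSE510 control replicate 1 (0.0561) and -0.60 without KYSE510 control replicate 2 (0.0892). With a window of 5 kb it was -0.44 (limma adjusted p 0.113), and the adjusted p ranged from 0.00264 to 0.113 over the 17. The fitted SOX2 difference rested on the region over its start, and without peaks over listed starts it was -0.18.

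**Figure D4:**
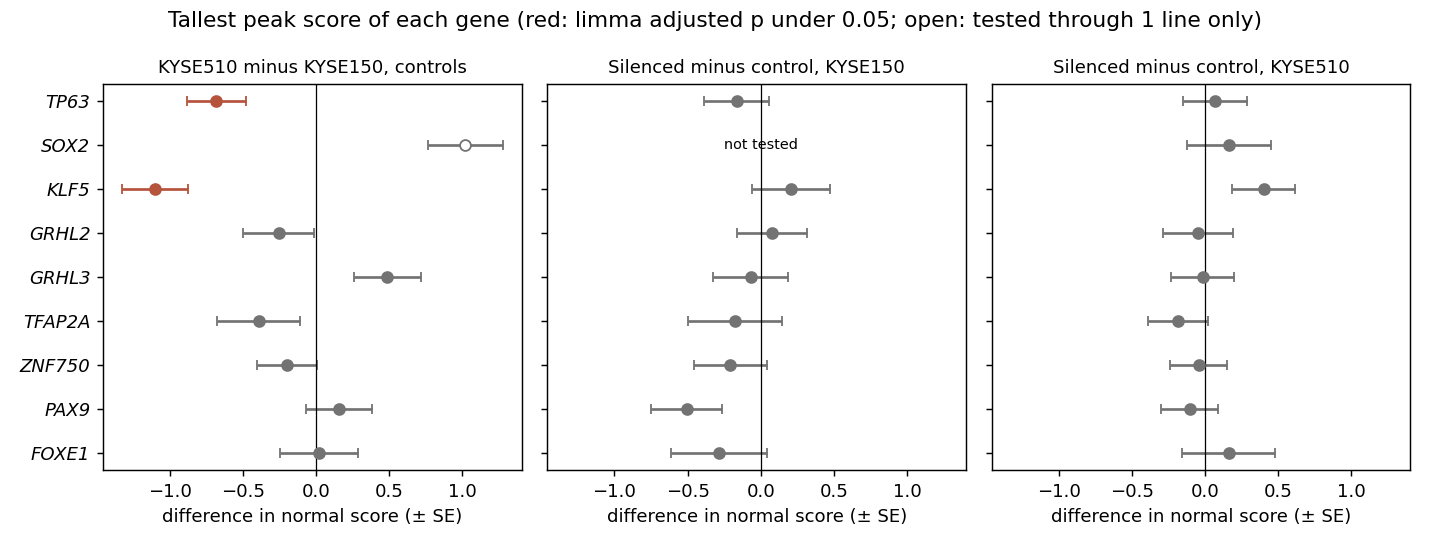
Difference in the normal score of the tallest peak of each gene, with bars of 1 standard error from limma, for KYSE510 against KYSE150 controls (left), silenced against control libraries in KYSE150 (middle) and the same in KYSE510 (right). The red points, KLF5 at -1.10 and TP63 at -0.68, have an adjusted p under 0.05, and both are in the left panel, where the open point, SOX2 at 1.02, is a gene that was tested only through its KYSE510 peaks.

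In number of peaks, 8 of the 9 genes had more in KYSE510 controls than in KYSE150 controls, and TFAP2A, with a log2 difference of -0.11, did not. ZNF750 was the 1 gene called by limma, with 6, 3 and 4 peaks in KYSE510 controls against 1, 1 and 1 in KYSE150 controls. Its difference in log2(number + 1) was 1.38 ± 0.22 (SE) with an adjusted p of 0.0124. Of all 18453 genes tested 25.5% were called higher and 0.878% lower, beside 1 of 9 higher and 0 of 9 lower here, and the KYSE510 lists were the longer ones. That split, 4710 genes higher and 162 lower, became 1018 and 1161 when each list was held to its 20000 tallest peaks, and 104 and 94 at an FDR of at most 0.05. With the 20000 tallest peaks TP63 and KLF5 turned to fewer peaks in KYSE510, at -1.47 (limma adjusted p 0.0302) and -0.86 (0.0168). The ZNF750 call was lost with an FDR of at most 0.05 (adjusted p 0.133), a window of 5 kb (0.240), the 20000 tallest peaks (0.534) and without KYSE510 control replicate 3 (0.0506), in a range of limma adjusted p from 0.000332 to 0.534. Other genes gained a call. With all 12 libraries in the fit TP63, KLF5, GRHL2, GRHL3 and PAX9 were also called higher in KYSE510. Their limma adjusted p ran from 0.000232 for GRHL3 to 0.0218 for KLF5, and SOX2 stood at 1.71 in that fit. A minimum height of 5 added PAX9 at 0.58 (limma adjusted p 8.48e-05), and SOX2 stood at 1.39 there. The PAX9 counts at that height were equal within each group, which makes the error small. With a window of 5 kb FOXE1 and SOX2 both stood at 1.19, and TP63 was called without KYSE150 control replicate 1, at 0.62 (limma adjusted p 0.0433). As on the tallest peak, SOX2 entered these tests through its KYSE510 peaks, and so did FOXE1 with the 5 kb window. These values of SOX2 and FOXE1 are therefore descriptions and not calls.

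Presence of a peak with a height of 3 or more was also compared between the lines, on lists of unlike depth. Of the 149 regions, 5 (3.36%) were called in all 6 KYSE510 libraries and no KYSE150 library, and 0 the other way, against 3.45% and 0.285% of 290571 regions in the series. The 5 regions were the SOX2 start, chr17:82847949-82848695 at ZNF750, chr6:10383169-10384122 at TFAP2A, chr1:24374445-24375209 at GRHL3 (inside STPG1) and chr8:101690327-101691248 at GRHL2 (inside NCALD). The ZNF750 region was the tallest of the latter 4, with heights of 10, 16 and 11 in KYSE510 controls and 14, 11 and 14 in KYSE510 silenced libraries. No KYSE150 library had a peak of any height there. At the TFAP2A, GRHL3 and GRHL2 regions the KYSE510 heights were 5 to 7, 5 to 9 and 4 to 7, and some KYSE150 libraries had peaks of height 1 or 2. When each list was held to its 50000 tallest peaks, an alternative chosen after seeing the data, 2 of 83 regions (2.41%) had that pattern, beside 3.37% of 122619, and 0 had the opposite one, beside 1.55%. Of the 5 regions 1 was kept, the ZNF750 one, and the SOX2 start was among the 4 that were not. The other region was a new one, the PAX9 region inside SLC25A21.

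The second comparison asked whether silencing HCP5 moved the tallest peaks of these genes. Within KYSE150, limma called 0 of the 8 genes tested, and 0% of 17397 genes were called higher and 0% lower, with 928 genes at an unadjusted p under 0.05. SOX2 was not tested, since fewer than 3 KYSE150 libraries had a peak. Within KYSE510 it called 0 of 9, and again 0% of 18735 genes higher and 0% lower, with 1282 at an unadjusted p under 0.05. No member had an adjusted p under 0.05 in either line in any alternative that was run.

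The largest differences among the 9 genes were those of PAX9 in KYSE150 and KLF5 in KYSE510. For PAX9 the difference in normal score, silenced minus control, was -0.51 ± 0.25 (SE) in KYSE150, with a limma adjusted p of 0.932, and -0.11 ± 0.19 in KYSE510. For KLF5 it was 0.40 ± 0.22 in KYSE510, with a limma adjusted p of 0.777, and 0.21 ± 0.27 in KYSE150. TP63 gave -0.16 ± 0.22 in KYSE150 and 0.07 ± 0.22 in KYSE510, and SOX2 gave 0.16 ± 0.29 in KYSE510.

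By plain height, the tallest peaks of PAX9 and TP63 were lower in all 3 silenced than in all 3 control KYSE150 libraries. For TP63 these heights were 20, 22 and 19 in controls and 16, 17 and 14 in silenced libraries. That is 2 of 9 genes, beside 11.2% of 17397 genes with that order and 0.793% with the opposite one, which none of the 9 had. Library depth moved in the same direction in part: the solved background was 0.101 to 0.103 in KYSE150 controls and 0.0928, 0.108 and 0.0826 in silenced replicates 1, 2 and 3, and its part in these heights was not tested. In KYSE510 0 of 9 genes had groups that did not overlap, beside 3.83% of 18735 genes lower and 2.99% higher.

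Whether the effect of silencing differed between the lines was tested by the interaction term over all 12 libraries. Limma called 0 of the 9 genes, and 0% of 18954 genes higher and 0% lower, with 1048 genes at an unadjusted p under 0.05. The differences of the effects, KYSE510 minus KYSE150, ran from -0.12 ± 0.33 (SE) for GRHL2 to 0.40 ± 0.43 for FOXE1, and PAX9 was next at 0.39 ± 0.29.

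In number of peaks, limma called ZNF750 higher after silencing in KYSE150, where 0.115% of 17397 genes were called higher and 0.322% lower. All 3 controls had 1 peak and all 3 silenced libraries had 2, a difference of 0.58 ± 0.06 (SE) in log2(number + 1) with an adjusted p of 0.0363. The small error comes from counts that were equal within each group. The added peak was at chr17:82858346-82858955, inside TBCD, where the silenced libraries had heights of 3, 5 and 4 and the controls had peaks of height 1, below the minimum of 3. With a minimum height of 5 the adjusted p was 0.769, without KYSE150 control replicate 3 it was 0.0536, and over all 14 alternatives it ran from 0.000316 to 1. In KYSE510 every library had that region, with 6, 6 and 5 in controls and 7, 7 and 7 in silenced libraries, and the number of peaks at ZNF750 differed by -0.07 ± 0.26 with a limma adjusted p of 0.987.

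Of the other genes, GRHL3 had 6, 5 and 4 peaks in KYSE150 controls and 3, 3 and 2 in silenced libraries, which did not overlap. It was the 1 of 9 genes with fewer peaks in all 3 silenced KYSE150 libraries, beside 3.18% of 17397 genes, and ZNF750 the 1 with more, beside 1.14%. The GRHL3 difference was -0.71 ± 0.18 (SE), with a limma adjusted p of 0.500. GRHL2 had 8, 12 and 10 against 8, 7 and 6, a difference of -0.45 ± 0.18 with a limma adjusted p of 0.661. In KYSE510, GRHL3 had 12, 9 and 7 peaks in controls and 10, 9 and 10 in silenced libraries. Limma called 0 of 9 genes there, and 0% of 18735 genes higher and 0% lower, with 1108 at an unadjusted p under 0.05. Summed over the 9 genes, KYSE150 controls had 46, 45 and 44 peaks and silenced libraries 45, 41 and 37, which overlapped at 45, and KYSE510 controls had 73, 70 and 62 against 78, 74 and 74. The KYSE510 sums did not overlap, but no single gene of the 9 had groups apart, beside 1.58% of 18735 genes with fewer peaks in all silenced libraries and 3.36% with more. The whole KYSE510 lists overlapped, with 104208 to 117515 peaks of height 3 or more in controls and 108599 to 123109 in silenced libraries.

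Single regions were tested where every library of a line had a peak. In KYSE150, 24 regions of the 9 genes were tested and limma called none, nor any of 27137 regions in all (0%), with 1499 at an unadjusted p under 0.05. After the KLF5 region downstream of the gene, the smallest unadjusted p belonged to the PAX9 start (-0.47 ± 0.31 SE) and to chr3:189833976-189834526 in TP63 (-0.52 ± 0.35), with limma adjusted p of 0.924 and 0.931. In KYSE510, 37 regions of the 9 genes were tested and limma again called none, nor any of 46254 (0%), with 3728 at an unadjusted p under 0.05. The smallest there were chr3:189914804-189915233 past the end of TP63 (0.89 ± 0.41 SE, limma adjusted p = 0.634), chr1:24309745-24310217 at GRHL3 (0.80 ± 0.40, limma adjusted p = 0.668) and chr8:101473940-101474730 at GRHL2 (-0.58 ± 0.33, limma adjusted p = 0.709). By plain height, all 3 silenced libraries were lower than all 3 controls at 4 of the 24 KYSE150 regions, 1 each at KLF5, PAX9, TFAP2A and TP63, beside 9.64% of 27137, and higher at 0, beside 0.991%. In KYSE510 they were lower at 0 of 37, beside 3.71% of 46254, and higher at 1, the ZNF750 region chr17:82858347-82858955, beside 5.35%. The TP63 region past the end of the gene had heights of 3, 7 and 3 in KYSE510 controls and 7, 6 and 8 in silenced libraries, which overlapped.

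Few regions were present in 1 treatment only. In KYSE150, 1 of 78 regions of the 9 genes was called in all 3 control libraries and no silenced library, where 0.741% of 118796 regions were. It lay past the end of GRHL3 inside STPG1, at chr1:24365226-24365532, with heights of 7, 4 and 5 in controls and of 1, 2 and 2 in silenced libraries. The reverse held for 1 of 78, the ZNF750 region with the added peak, and for 0.278% of all. In KYSE510, 0 of 129 regions were present in controls only, beside 0.318% of 257668. There, 2 of 129 were present in silenced libraries only, beside 0.640%. These were chr1:24299974-24300457 upstream of GRHL3, with 4, 7 and 3, and chr3:189718254-189718612 in TP63, with 3, 7 and 3, and the control libraries had no peak at either.

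The wider set of squamous and stratified epithelial regulators gives a frame for the 9 genes. All 22 of its genes, among them TP73, GRHL1, TFAP2C and KLF4, had a peak in all 6 libraries of each line. So did 7 of the 9 genes described here in KYSE150 and 9 in KYSE510. Of all protein-coding genes, 77.7% had one in all 6 KYSE150 libraries and 87.8% in all 6 KYSE510 libraries. By median percentile, TRIM29 was the highest of the 22 in KYSE150 (97.3), and OVOL2 was the lowest in both lines (25.2 and 17.8). Limma called 5 of the 22 higher and 2 lower in KYSE510 controls against KYSE150 controls on the tallest peak, with a median difference of 0.35. Of all 18453 genes tested, 14.9% were called higher and 14.1% lower, with a median difference of -0.04. Silencing gave 0 calls among the 22 on the tallest peak in either line, with median differences of 0.05 in KYSE150 and -0.02 in KYSE510.

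Over the 12 libraries, TANK and RHOG were among the 3 genes whose percentile of the tallest peak lay closest to that of TP63, with mean absolute differences of 4.21 and 4.33 percentile points. For SOX2 the 3 closest were KLK3, OR5BS1 and RPH3AL, at 6.16, 6.58 and 6.59 points. Their medians in KYSE150 and KYSE510 were 7.07 and 38.8 for KLK3, near those of SOX2 (7.70 and 40.8).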

How the data were processed

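The authors deposited 1 peak list per library. Per the submitters' processing notes, Trimmomatic 0.36, Bowtie2 2.2.6, Picard 2.8.2, MACS2 2.1.1 and bedtools 2.25.0 were used with build GRCh38. Their roles and settings are not given in the sources used here. Per the file headers, the lists hold each peak's length, its fold enrichment (a ratio to local background), a linear p-value and FDR, and Pileup, a signal height that is no read count. The largest deposited p-value was 0.00987. The authors normalised no value between libraries as far as the lists show, and read depth is unknown, so no counting interval is given.

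Peaks on chromosomes 1 to 22, X and Y with a Pileup of 3 or more were assigned to a gene when their midpoint lay within 20 kb of its GRCh38.p14 RefSeq span. The midpoint rule was chosen after seeing that a tall peak straddled the edge of the FOXE1 window. In each library, the tallest peak of each of 20033 protein-coding genes was ranked and turned into a normal score. Genes with a peak in at least 3 libraries of a fit were tested with limma 3.58.1 (R 4.3.3; lmFit, eBayes), with Benjamini-Hochberg adjustment over all genes and a threshold of 0.05. The same test was used for log2(peak number + 1) and for the scores of regions merged with bedtools 2.31.1 at an overlap of 1 bp and called in every library. Scripts were tested on simulated data. Python 3.11.15, numpy 2.4.6, pandas 2.3.3 and matplotlib 3.10.9 were used. Starts came from the RefSeq promoter table, or from both gene ends for GRHL2 and ZNF750, which have no entry there.

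All 9 genes were named, with the tallest and start-site regions of each, the 3 regions with the smallest p in each line, regions present in 1 treatment only, and the 3 genes most like TP63 and SOX2; some genes that the rule names are not reported here. Some further regions were chosen after their values were seen. The members and lists were chosen with earlier results of these data known.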

Additional observations from a re-analysis of the deposited data

How the results depend on the processing

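Several counts of genes called over the whole series moved with the settings, and the cause was not tested. For the tallest peak after silencing, log2 height over the library median gave 55 calls in KYSE150, 29 in KYSE510 and 34 for the interaction in place of 0. Leaving out 1 library gave 0 to 1 in KYSE150 and 0 to 1 in KYSE510. For the line comparison, 5360 calls became 3170 with fold enrichment and 8435 with all 12 libraries. For peak number after silencing in KYSE150, 76 calls became 160 at a Pileup of 5, 0 at an FDR of 0.05, 145 with a 5 kb window, 143 with the 20000 tallest peaks, 130 without the filter, 0 with all 12 libraries and 26 to 169 without 1 library. In KYSE510, 0 calls became 121, 18, 104, 187, 60 and 13 under the same settings, for a Pileup of 5, an FDR of 0.05, the 5 kb window, the 20000 tallest peaks, no filter and all 12 libraries. For peak number between lines, 4872 calls became 198 at an FDR of 0.05, 2179 with the 20000 tallest peaks, 9612 with all 12 libraries and 1528 to 3325 without 1 library. Region scores in KYSE510 gave 36 calls over regions called in at least 3 libraries.

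With a replicate block, peak number gave 0 calls in KYSE150, where the ZNF750 adjusted p by limma was 0.445, and 2252 between lines, GRHL3 among them at 0.77 with a limma adjusted p of 0.0435. The replicate block changed no count of calls on the tallest peak by over 1.5 times, with 5733 between lines. Pairing was judged on normal scores with the mean of each group taken off. These deviations correlated between same-numbered control and silenced libraries at 0.0237 to 0.0478 in KYSE150 and 0.0284 to 0.0970 in KYSE510. The replicate numbers were therefore not read as pairs. By these deviations each silenced library still correlated best with the control of its number, a hint from the data and not the design. Of 963 values for single genes under the alternatives, 15 lost a call, 17 gained one and 4 with a call before or after turned in direction. These counts include the fits of SOX2, PAX9 and FOXE1 that were entered only through KYSE510 peaks. SOX2 between lines turned to -0.18 without start-site peaks. With the 20000 tallest peaks, the peak number of ZNF750 in KYSE150 turned to -0.33, and between lines that of TP63 to -1.47 and of KLF5 to -0.86. The regions of the 9 genes in all 6 KYSE510 and no KYSE150 library numbered 5, and with the 50000 tallest peaks 2, of which 1 was among the 5, an alternative added after seeing the data, as were the start-site and overlap alternatives. Groups of 3 libraries were too small for a test of outlying values.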
